A study of Mus musculus with 3 samples.

Results

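Neurotrophins are secreted growth factors that neurons use as survival and plasticity signals. They are made as precursors, cut by proteases to the mature form, and bind Trk receptor tyrosine kinases, which start Ras, phospholipase C and PI3 kinase signalling. The p75 receptor binds all mature neurotrophins and, together with sortilin-family receptors, their uncut precursors. In cortex, Bdnf is made mainly by excitatory neurons under the control of activity and acts largely through TrkB, the product of Ntrk2. The genes described here were 8 named ligands and receptors of this system, and a gene was taken as measured where a probe set carried its symbol and no other. This gave 6 genes of 14806 named on the arrays, with 1 probe set each: Bdnf, Ntf5, Ntrk2, Ntrk3, Ngfr and Sorcs2. Ntf3 and Sort1 had no such probe set and were not analysed here.

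The RNA was total RNA from the neocortex of wild type CD1 mice, an outbred stock, at postnatal day 13. The 3 animals were biological replicates of 1 group with 1 array each, and no transgene, treatment or control group entered the study. The arrays measure a gene by 1 summary over its probes, so the truncated and kinase-bearing forms of Ntrk2 and Ntrk3, and the transcripts that start at different promoters of Bdnf, could not be told apart. Probes differ in how brightly they respond, so each gene is set against background and against itself in the other mice, and no order of levels between genes is given.

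Markers of neocortical cells were present. Of 78 measured marker genes of brain cell types and neighbouring regions 76 exceeded background in each mouse, including 7 of 7 for neocortical excitatory neurons, 7 of 7 for interneurons and 5 of 5 for astrocytes. Markers of neighbouring regions did so too, with 6 of 6 for striatum and 4 of 4 for hippocampus, so passing the limit does not by itself identify the tissue as neocortex alone. Slc17a7, the main cortical vesicular glutamate transporter, was at a log2 intensity of 12.90, 12.98 and 12.78 in mice 1, 2 and 3. Median intensities of the arrays ran from 230.6 to 256.6. The arrays were not equally bright above background: the median gene deviated from its own mean over mice by -0.07 log2 units in mouse 1, 0.10 in mouse 2 and -0.02 in mouse 3.

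All 6 measured genes were above background in every mouse. As background served 809 receptor probe sets (olfactory, vomeronasal and trace amine), most of which are not known for expression in neocortex; 27 of them exceeded the limit on all arrays, and the limit is a guide rather than a detection test. Each array's limit was the 95th percentile of these probe sets and lay at intensities of 122, 110.3 and 109 in mice 1, 2 and 3. The share of all 14938 single-gene probe sets that passed the limit on the 3 arrays was 73.9%, so 6 of 6 by itself says little about this family. The 6 genes also exceeded the stricter 99th percentile limit on each array.

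Bdnf, the ligand of TrkB and the most studied cortical neurotrophin, was measured by probe set 6879925. Its intensity was 618 in mouse 1, 976 in mouse 2 and 776 in mouse 3. Mouse 1 was lowest and mouse 2 highest, 1.58-fold apart, and mouse 3 lay between them; mice 1 and 2 kept these places after quantile normalization and median centring. The mean log2 intensity was 9.60 ± 0.33 (SD, n = 3), and the values stood between 5.08 and 8.85 times the background limit of their arrays. In a bulk sample, fewer cells of a type and less RNA per cell cannot be told apart.

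Bdnf transcripts start at several alternative promoters, each followed by its own noncoding leader exon and joined to a shared coding exon, and the cyclic AMP response element (CRE) upstream of the exon IV start is known from rat and mouse neurons as a site of calcium-dependent control. The RefSeq table of build GRCm38.p6 held 7 start sites for Bdnf, 1 for Ntrk2 and 1 for Ngfr. The 250 bases before each start were searched on both strands for a CRE half-site (TGACG), a full CRE (TGACGTCA, which holds the half-site on each strand), an E-box (CACGTG), a GC box (GGGCGG) and a TATA box (TATAAA). A CRE half-site was found before 1 of the 7 Bdnf starts, with its first base 35 bases before the start, and 17.8% of 32851 windows in the table held one. No full CRE, held by 1.55% of windows, no E-box, held by 6.02%, and no TATA box, held by 12.4%, was matched in the windows of Bdnf, Ntrk2 or Ngfr. The Ngfr window held 4 GC boxes, and 32.7% of windows held at least 1. Among the Bdnf windows not shown, that at chr2:109676782-109677031 held 2 GC boxes and that at chr2:109692777-109693026 held 1. Shown first, for its CRE half-site, is the Bdnf window at chr2:109692186-109692435 on the plus strand. Next comes the window of the most upstream Bdnf start, chr2:109674450-109674699, plus strand, in which none of these motifs was matched, and last that of Ngfr, chr11:95587699-95587948, minus strand, which held the 4 GC boxes. All run 5′ to 3′ with matched motifs in capitals.
Bdnf, start with the CRE half-site: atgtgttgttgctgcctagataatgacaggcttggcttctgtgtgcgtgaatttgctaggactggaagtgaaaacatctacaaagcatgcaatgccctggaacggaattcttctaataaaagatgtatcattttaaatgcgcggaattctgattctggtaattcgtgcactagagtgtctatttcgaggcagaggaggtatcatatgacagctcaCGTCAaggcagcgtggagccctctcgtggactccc
Bdnf, most upstream start: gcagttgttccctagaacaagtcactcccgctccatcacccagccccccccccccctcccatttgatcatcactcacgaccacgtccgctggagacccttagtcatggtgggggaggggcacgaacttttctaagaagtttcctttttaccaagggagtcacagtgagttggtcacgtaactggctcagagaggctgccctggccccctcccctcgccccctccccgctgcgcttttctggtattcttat
Ngfr: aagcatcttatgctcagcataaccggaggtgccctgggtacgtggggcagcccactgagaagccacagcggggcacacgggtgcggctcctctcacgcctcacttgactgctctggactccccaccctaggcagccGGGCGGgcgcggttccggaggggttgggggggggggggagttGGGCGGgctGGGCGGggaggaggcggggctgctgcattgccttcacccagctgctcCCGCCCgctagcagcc
The array gave 1 value for all Bdnf starts together, so the share of each start in the differences between mice was not measured. A match of letters is a description of the sequence and not evidence of binding. The Bdnf window with the half-site had a GC content of 45.6%, that of the most upstream start 58.0% and that of Ngfr 70.4%, against a median of 52.4% over all windows.

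Ntf5, the gene of neurotrophin-4, a second TrkB ligand, was measured by probe set 6960372. It was at 298 in mouse 1, 349 in mouse 2 and 282 in mouse 3. The highest and lowest mouse were 1.24-fold apart, with a log2 mean of 8.27 ± 0.16 (SD, n = 3). It stood at 2.45, 3.16 and 2.58 times the limit in mice 1, 2 and 3.

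The kinase receptors had narrow spans between mice in the deposited values. Ntrk2, the gene of TrkB, was at 6067, 5947 and 6472 in mice 1, 2 and 3 (probe set 6807480), a 1.09-fold span with a log2 mean of 12.59 ± 0.06 (SD, n = 3). The span was 1.21-fold after quantile normalization and after median centring, where the SD was 0.14. Its probe set was between 49.9 and 59.2 times the limit. Astrocytes are known to make the truncated TrkB receptor in quantity, and their 5 measured markers had a median deviation of -0.04, -0.02 and 0.06, with summed intensities of 13897, 14739 and 15159. Aqp4 (12.16, 12.18 and 12.26), Gfap (10.94, 11.19 and 11.21), Gja1 (11.95, 12.20 and 12.21) and Fgfr3 (10.91, 10.92 and 10.98) were highest in mouse 3, and Aldh1l1 (10.54, 10.11 and 10.15) in mouse 1. Of all genes 15.1% were highest in mouse 3 as deposited. The median deviation of the astrocyte markers turned with the scaling. It was 0.08, -0.12 and 0.04 after quantile normalization and -0.06, -0.09 and 0.15 after median centring. For Ntrk2 the deviations as deposited were -0.02, -0.05 and 0.07, and the part of astrocytes in them was not tested. Ntrk3, the gene of the neurotrophin-3 receptor TrkC (probe set 6968643), was at 837, 851 and 776, a 1.10-fold span with a log2 mean of 9.68 ± 0.07 (SD, n = 3) and 6.88 to 7.71 times the limit.

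Which mouse was highest for the Trk genes depended on how the arrays were scaled. For Ntrk2 the deviation of mouse 1 was -0.02 in the deposited values and 0.13 after quantile normalization, and that of mouse 3 was 0.07 and, with each array centred on its median, 0.16. For Ntrk3 mouse 2 was highest as deposited and mouse 1 after either rescaling. The mouse with the lowest Ntrk2 was mouse 2 under all 3 scalings, with a deviation of -0.05 as deposited, -0.15 after quantile normalization and -0.12 after median centring. For Ntrk3 neither the highest nor the lowest mouse was the same under all 3, the lowest being mouse 3 as deposited and after quantile normalization and mouse 2 after median centring.

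**Figure D1:**
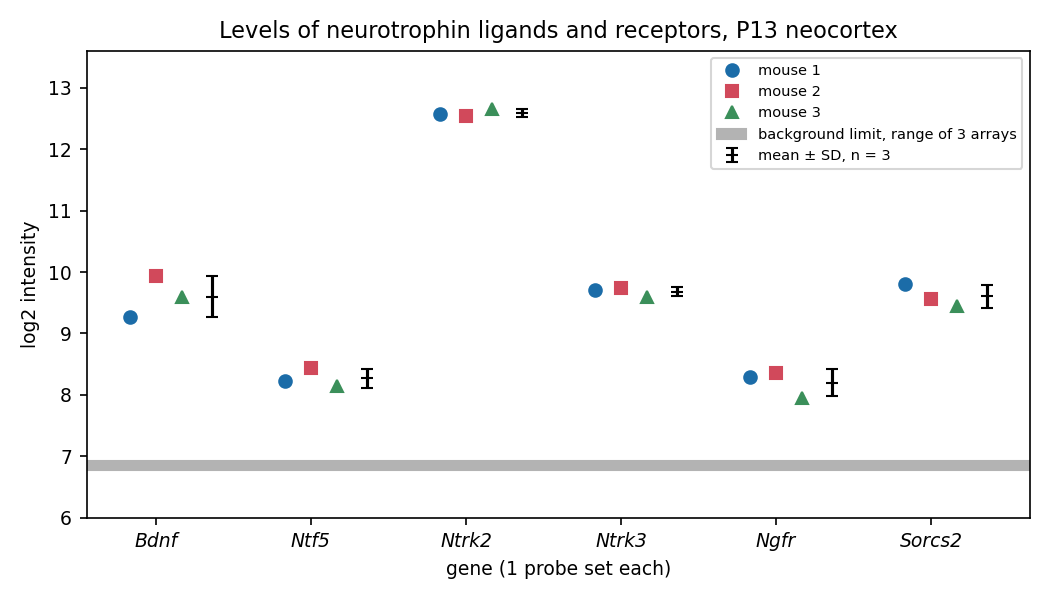
Log2 intensity (vertical axis) of the 6 measured genes in mouse 1 (circles), mouse 2 (squares) and mouse 3 (triangles), with the mean ± SD in black; the grey band spans the background limits of the 3 arrays. All points lie above the band, and the 3 mice stand farthest apart for Bdnf (9.27, 9.93 and 9.60).

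Ngfr encodes p75, the receptor shared by the neurotrophins, which in the brain is best known from basal forebrain cholinergic neurons and their axons and, in early life, from subplate neurons, meninges and peripheral glia. Its probe set 6791048 was at 313 in mouse 1, 327 in mouse 2 and 248 in mouse 3. Mice 1 and 2 were close and mouse 3 was lower, 1.32-fold under mouse 2, with a log2 mean of 8.20 ± 0.22 (SD, n = 3) and 2.27 to 2.97 times the limit. Mouse 3 was also lowest after quantile normalization and median centring, where the span was 1.21 and 1.19-fold. The highest was mouse 1 after quantile normalization and mouse 2 after median centring. Of 5 measured cholinergic genes 4 were above the limit, with Chat, the acetylcholine-synthesising enzyme, at 7.14, 7.26 and 7.33, Slc18a3, which loads acetylcholine into vesicles, at 8.06, 7.56 and 7.80, Slc5a7, the choline transporter, at 8.41, 8.44 and 8.36, and Lhx8 at 8.18, 8.69 and 8.28. Gbx1 was below the limit on every array (5.84, 6.10 and 5.34). The summed intensity of these 5 was 1094, 1171 and 1063 in mice 1, 2 and 3. Of the peripheral glial markers only Foxd3 and Erbb3 were measured; Foxd3 lay under the limit in every mouse (6.85, 6.73 and 6.24) and Erbb3, which oligodendrocyte-lineage cells also use, was at 8.79, 8.62 and 8.59, with a summed intensity of 557, 499.98 and 461. Both were lowest in mouse 3, as Ngfr was and as were 34.6% of all genes above the limit as deposited. Erbb3 was lowest in mouse 2 after quantile normalization and median centring. Of the 9 measured meningeal and fibroblast genes, Col1a1 (10.61, 11.08 and 10.16) and Col1a2 (10.91, 11.25 and 10.57) were highest in mouse 2 and lowest in mouse 3. Ngfr had these places as deposited, but its highest mouse changed with the scaling. The other 7 genes were lowest in mouse 1. The part of any of these cell types in the Ngfr values was not tested.

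Sorcs2, a VPS10-domain receptor that binds proneurotrophins together with p75, had intensities of 894, 752 and 699.8 in mice 1, 2 and 3 (probe set 6937466). Mouse 1 was highest, 1.28-fold above mouse 3, and the log2 mean was 9.60 ± 0.18 (SD, n = 3), 6.40 to 7.35 times the limit. The 3 other VPS10 receptors with a probe set ran in the same order. Sorl1, a sorting receptor of the amyloid precursor, was at 10.70, 10.38 and 10.29 on the log2 scale, Sorcs1 at 9.59, 9.48 and 9.28, and Sorcs3 at 9.58, 9.51 and 9.39. Nradd, the remaining measured gene of the neurotrophin family list that held these 3, ran otherwise, with mouse 1 at the bottom (8.94, 9.25 and 9.24). Over all 10952 genes above the limit 17.1% had the order of Sorcs2 and 25.1% were highest in mouse 1. All 4 VPS10 receptors were highest in mouse 1 after quantile normalization and after median centring too, where 40.1% and 23.0% of all genes were. The full order then held for 2 and 1 of the 4, beside 18.2% and 9.88% of all genes. Sorcs2 itself did not keep it, since its lowest mouse was mouse 2 after either rescaling. None passed the test of spread described next, and the 4 genes were set side by side with the order of Sorcs2 known.

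The spread of each gene between the animals was compared with that of other probe sets of its level. In limma's robust variance model with a trend on level, 0 of the 6 genes varied in excess of their level at a p under 0.05 after Benjamini-Hochberg adjustment, and 0 at an unadjusted p under 0.05. Of the 13649 probe sets above the limit 0.0659% passed the adjusted and 5.27% the unadjusted threshold. Bdnf came nearest, with an SD of 0.33 against 0.19 in the model for its level (unadjusted p = 0.0622, adjusted p = 0.966, limma variance test). Of the 500 probe sets nearest to Bdnf in level 40 had an SD as large, and a span over 1.5-fold was seen in 11.7% of all probe sets above the limit. Adjusted p-values of the other 5 genes in the limma test lay between 0.987 and 0.997. At the low end, 429 of the 500 probe sets nearest to Ntrk2 and 434 of those nearest to Ntrk3 had an SD at least as large as theirs in the deposited values. For Ntrk2 this place depended on the scaling: its unadjusted p in the limma test was 0.869 as deposited, 0.139 after quantile normalization and 0.602 after median centring (adjusted p = 0.997, 0.974 and 0.997). With 3 arrays the test is coarse, and missing its threshold does not show that the mice were alike.

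**Figure D2:**
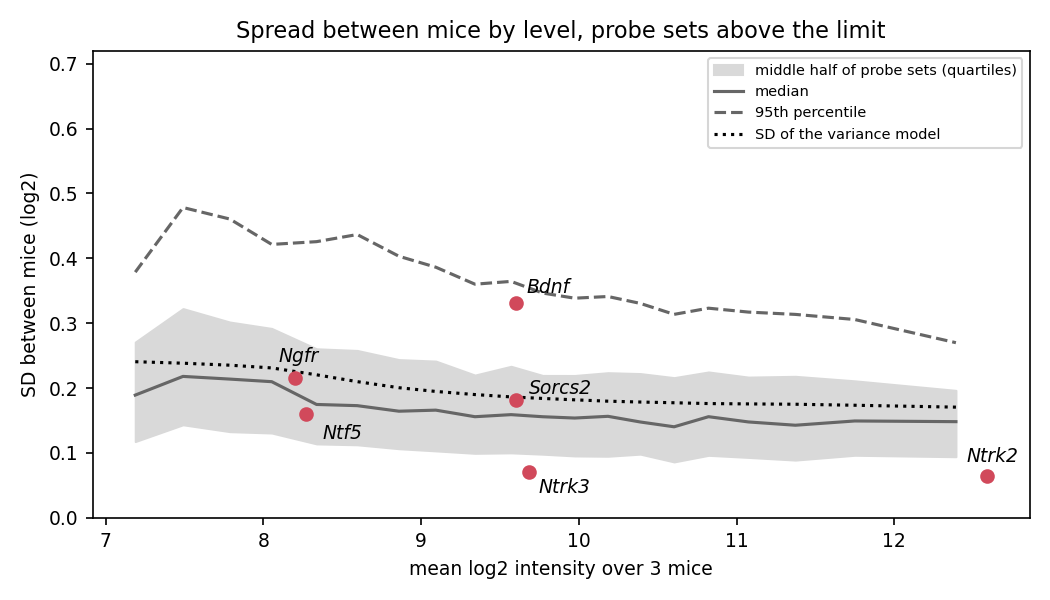
SD between the 3 mice (vertical axis, log2 units) against mean log2 intensity for probe sets above the background limit, as the quartile band, median and 95th percentile in 20 level bins, with the SD of the variance model dotted and the 6 genes as points. Bdnf (SD 0.33) lies just under the 95th percentile of its level, Ngfr, Ntf5 and Sorcs2 lie within the quartile band, and Ntrk2 (0.06) and Ntrk3 (0.07) lie below it.

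Because the arrays differed in brightness, each mouse's deviation was also set against the median deviation of the 500 probe sets nearest in level. For Bdnf the difference from these was -0.26 in mouse 1, 0.23 in mouse 2 and 0.02 in mouse 3. The span between mice thus went from 0.66 to 0.49 log2 units, and the order of the mice was kept. Sorcs2 deviated the other way, with its difference at 0.27 in mouse 1, -0.15 in mouse 2 and -0.13 in mouse 3, with mice 2 and 3 close together. Ngfr stood at 0.11, 0.08 and -0.19, again low in mouse 3 alone. Ntf5 spanned only 0.18 and Ntrk3 0.17 log2 units after this step. Ntrk2, for which mice 1, 2 and 3 differed by 0.14, -0.14 and 0.01 from genes of like level, spanned 0.28.

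**Figure D3:**
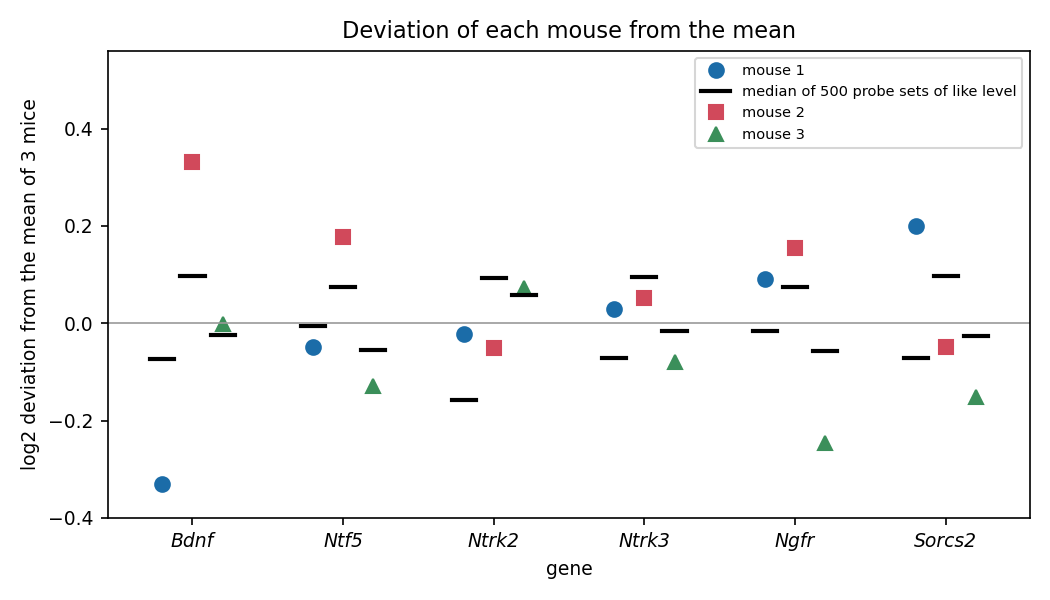
Deviation of each mouse from the mean of the 3 mice (vertical axis, log2 units) for the 6 genes, with black bars at the median deviation of 500 probe sets of like level. Bdnf lies outside its bars in mouse 1 (-0.33 against -0.07) and mouse 2 (0.33 against 0.10), and Sorcs2 lies on the other side of its bar in mouse 1 (0.20 against -0.07).

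Likeness between genes was measured as the largest difference over the 3 mice between their deviations from the mean, which 3 arrays allow where a correlation is not warranted. The genes nearest to Bdnf were Prdx1 (0.005 log2 units), 2610001J05Rik (0.009) and Tmem33 (0.009), and 0.95% of the 10951 other genes above the limit lay within 0.05 of it. Nearest to Ntrk2 were Ccdc91, Gnb1 and Ctps2, to Ntrk3 Phf13, Recql5 and Aspdh, and to Ngfr Extl1, Pon1 and Atad2. Within 0.05 lay 2.72% of genes for Ntrk2, 6.17% for Ntrk3 and 1.25% for Ngfr. Among the 6 genes, the closest pair was Ntf5 and Ntrk3 (0.13) and the most unlike pair Bdnf and Sorcs2 (0.53).

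The wider pathway was read from 9 lists holding 119 measured genes, of which 115 were above the limit on every array, beside 73.9% of all single-gene probe sets. In limma's variance test 0 of these 115 passed at an adjusted p under 0.05 and 7 at an unadjusted p under 0.05, beside 0.0659% and 5.27% of all probe sets. The median SD of the 119 was 0.15 log2 units, and that of all probe sets above the limit 0.16. The levels that follow are log2 intensities as mean ± SD over mice.

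Of 15 measured genes listed for proneurotrophin processing and secretion 12 were above the limit. Furin, a convertase of the trans-Golgi, was at 9.84 ± 0.07, and the convertases Pcsk1, Pcsk5 and Pcsk7 were at 10.07 ± 0.15, 9.30 ± 0.17 and 8.53 ± 0.30. Plat, the tissue plasminogen activator, was named after its values were seen, at 11.33 ± 0.10. Its substrate Plg, which as plasmin cuts proBDNF outside the cell, was above the limit on 2 arrays (7.16, 7.14 and 6.26 in mice 1, 2 and 3). The metalloproteases Mmp3 (4.76, 4.44 and 4.18) and Mmp7 (6.13, 5.83 and 5.80) were below it on every array. Mmp9, also named after its values were seen, was at 7.08, 8.03 and 7.24, 1.94-fold higher in mouse 2 than in mouse 1, and did not pass (unadjusted p = 0.0216, adjusted p = 0.847, limma variance test).

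Adaptors and kinases below the Trk receptors were all above background. All 16 measured adaptor and phospholipase genes were above the limit, with a median SD of 0.11, and the Shc adaptors Shc1, Shc2 and Shc3 were at 9.03 ± 0.17, 8.93 ± 0.05 and 11.52 ± 0.04. Frs3, a docking protein of the receptors, was at 8.78 ± 0.02. The Ras, MAP kinase and CREB branch had 13 of 13 above it, with a median SD of 0.09. Nras was at 10.92 ± 0.06, Rasgrf1, a calcium-sensitive activator of Ras, at 11.50 ± 0.08, and the small GTPases Rap1a and Rap1b at 10.71 ± 0.24 and 11.99 ± 0.24. In the PI3 kinase, AKT and mTOR branch 14 of 14 were above the limit (median SD 0.13). Its catalytic subunits Pik3ca and Pik3cb were at 10.65 ± 0.08 and 10.05 ± 0.06, and the regulatory subunits Pik3r1 and Pik3r2 at 10.95 ± 0.26 and 10.32 ± 0.12.

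Partners of p75 were also measured. All 14 were above the limit, with a median SD of 0.15. Lingo1 and the Nogo receptor Rtn4r, which form a complex with p75, were at 11.53 ± 0.09 and 9.50 ± 0.12, and the related Rtn4rl1 and Rtn4rl2 at 9.43 ± 0.17 and 8.69 ± 0.19. Of 18 genes of Trk trafficking and receptor modulation 18 were above the limit (median SD 0.16). Slitrk5, which binds TrkB, was at 10.16 ± 0.16, Slitrk1 at 10.74 ± 0.14, Islr2, a partner of Trk receptors, at 10.84 ± 0.11, and the receptor phosphatase Ptprs at 12.14 ± 0.08. None of the genes in these 2 lists passed the adjusted variance test.

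Genes that act on Bdnf transcription were 14 of 15 above the limit, with a median SD of 0.13. Creb1, which binds CRE sites, was at 10.03, 9.94 and 10.06 in mice 1, 2 and 3, Crem at 7.47, 7.91 and 7.64, the activity-induced factor Npas4 at 8.64, 9.26 and 9.08, and Mef2c at 12.05, 12.18 and 11.84. Npas4 and Crem shared the order of Bdnf, lowest in mouse 1 and highest in mouse 2, also after both rescalings, and Creb1 and Mef2c did not. Mef2d was below the limit on every array (4.62, 5.85 and 4.59). That order was seen in 5 of the 15 genes and in 42.3% of all genes as deposited, in 7 of the 15 and 22.6% after quantile normalization, and in 7 of the 15 and 25.1% after median centring. Whether the list lay under or over the share of all genes thus turned with the scaling.

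Most genes that BDNF is known to induce in cultured neurons were highest in mouse 2, as Bdnf was. All 14 measured were above the limit, 13 were highest in mouse 2 and 11 lowest in mouse 1, where 59.8% and 53.8% of all genes were. Their median deviation was -0.18, 0.22 and -0.04 in mice 1, 2 and 3, against -0.07, 0.10 and -0.02 for all genes, and their median SD was 0.24. Arc, a regulator of receptor trafficking at synapses, was at 10.09, 10.32 and 10.15, and the activity-induced factors Egr1, Egr2 and Egr3 at 10.88, 11.53 and 11.01, at 6.96, 7.51 and 7.14 and at 9.82, 10.29 and 9.52. Mouse 2 was thus highest for all 4, also after both rescalings, and the lowest as deposited was mouse 1 except for Egr3, where it was mouse 3. After quantile normalization 10 of the 14 were highest in mouse 2, beside 32.1% of all genes, and after median centring 9 of them, beside 31.5%. The number lowest in mouse 1 was 7 of 14 after quantile normalization, beside 41.3%, and 12 of 14 after median centring, beside 59.4%. In the limma test 0 of the 14 passed at an adjusted p under 0.05 and 3 at an unadjusted p under 0.05, beside 0.0659% and 5.27% of all probe sets. The list was chosen with earlier results of these data known.

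Markers of some other cell types ran in the same direction as Bdnf, and those of others did not. All 9 measured meningeal and fibroblast genes were highest in mouse 2 and 7 were lowest in mouse 1, with a summed intensity of 12292, 18420 and 14057 in mice 1, 2 and 3; all 9 were highest in mouse 2 after both rescalings as well. Their order was that of Bdnf for Dcn (10.96, 11.53 and 11.34), Lum (7.67, 8.48 and 7.88), Ptgds (11.75, 12.54 and 12.25), Mgp (8.69, 9.77 and 8.77), Slc6a13 (9.39, 10.00 and 9.80), Aldh1a2 (9.23, 9.79 and 9.64) and Col3a1 (10.53, 10.77 and 10.61), while Col1a1 (10.61, 11.08 and 10.16) and Col1a2 (10.91, 11.25 and 10.57) were lowest in mouse 3. All 6 striatal genes had the order of Bdnf: Drd1 (8.79, 9.15 and 8.82), Drd2 (9.77, 10.48 and 10.10), Penk (12.28, 12.81 and 12.73), Ppp1r1b (11.81, 12.43 and 12.39), Rgs9 (10.67, 11.22 and 10.99) and Tac1 (11.27, 11.84 and 11.74), with sums of 13995, 20748 and 19144; after median centring 3 of the 6 were highest in mouse 2. All 7 interneuron genes were highest in mouse 2, with sums of 15747, 19789.5 and 17918, and 4 of 7 were after either rescaling. Of 7 excitatory neuron genes 5 were highest in mouse 2 and 4 lowest in mouse 1, with sums of 21748.5, 25424 and 22744. Neurod6, the gene with the widest span of the 7, was at 10.24, 11.25 and 10.93. Neurod2 (9.93, 9.73 and 9.55) and Cux2 (9.83, 9.72 and 9.47) ran the other way, highest in mouse 1 and lowest in mouse 3. After either rescaling 3 of the 7 were highest in mouse 2. Microglial genes were highest in mouse 2 in 4 of 6 cases, with sums of 5580.0, 7050 and 6516, and in 2 of 6 after either rescaling. Of 4 hippocampal genes 3, and of 5 mural genes 3, were highest in mouse 2 under each of the 3 scalings. Of all genes 59.8% were highest in mouse 2 as deposited, 32.1% after quantile normalization and 31.5% after median centring. The excitatory neuron and microglial counts were thus near these shares. Endothelial genes were highest in mouse 1 in 4 of 6 cases (sums of 4125, 3631 and 3321), beside 25.1% of all genes as deposited. General neuronal genes were highest in mouse 3 in 4 of 5 cases (30664, 33364.5 and 35013), and oligodendrocyte genes in 6 of 6 (28349, 30831 and 34633), beside 15.1% of all genes. After quantile normalization the median deviation of the general neuronal genes was 0.05, -0.04 and 0.02 in mice 1, 2 and 3. That of the oligodendrocyte genes was 0.02, -0.10 and 0.12. After median centring it was largest in mouse 3 for both lists (0.18 and 0.24). Tac1 and Sst of the BDNF-induced list are also in the striatal and the interneuron list. No marker was listed at 0. The part of these cell types in the Bdnf values and in those of the BDNF-induced genes was not tested.

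**Figure D4:**
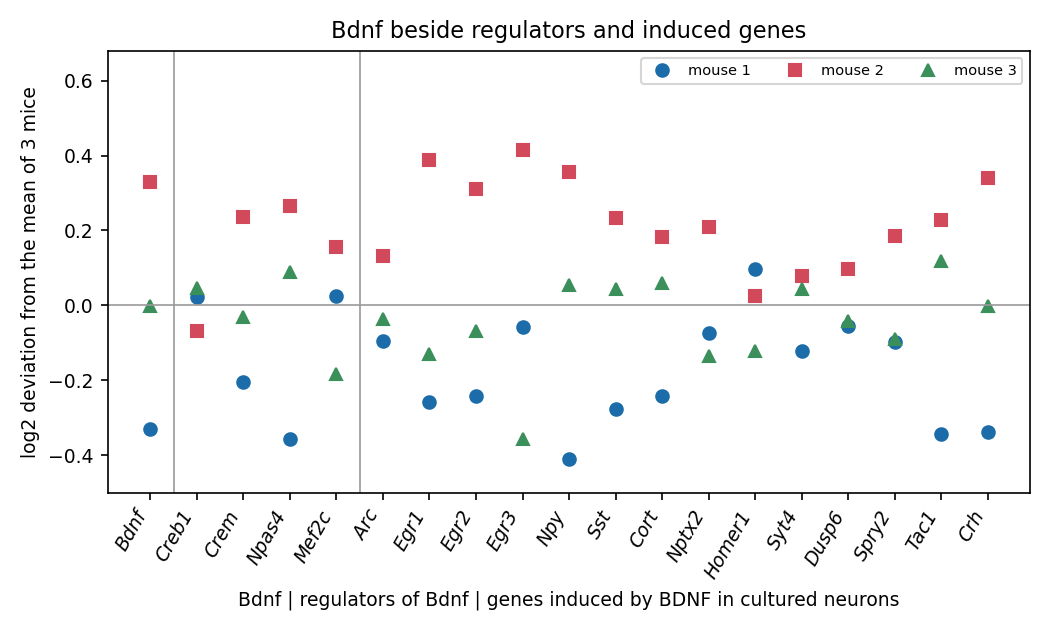
Deviation of each mouse from the mean of the 3 mice (vertical axis, log2 units) for Bdnf, the first 4 measured regulators of its transcription and the 14 measured genes that BDNF induces in cultured neurons, with mice 1, 2 and 3 as circles, squares and triangles. Mouse 2 is the highest point for Bdnf (0.33) and for 13 of the 14 induced genes, with Homer1 the exception, and mouse 1 the lowest for 11.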

How the data were processed

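The arrays were labelled with biotin by a whole-transcript sense assay, per the labels' protocols. The authors deposited linear intensities per probe set. The submitters' processing notes list Affymetrix Power Tools and build mm8, and for the normalization, background correction and summary method the sources used here give nothing. Here log2 was taken with no pseudocount. Genes were named from the platform annotation (14938 probe sets with 1 symbol, 989 with several, 7245 unnamed here), and 2 list genes were matched through older symbols in a RefSeq table. For a gene with several probe sets the brightest was used. Spread was tested with limma 3.58.1 in R 4.3.3 (fitFDistRobustly, trend on the mean, upper tail of F), with Benjamini-Hochberg adjustment over 13649 probe sets. On simulated data the test recovered 46% of probe sets given 4 times the SD and 78% of those given 8 times, with 8 false calls. Smaller excesses of spread were not simulated. Replicates were 3 animals, whose number limits precision. Promoter sequences are RefSeq's, build GRCm38.p6. Genes named were the members, the first 4 measured of each pathway list, the first 2 of each marker list (all for lists set beside a member), those below the limit and the 3 most alike; some are left out for brevity. Members and lists were chosen with earlier results of these data known, so no list is independent support. Alternatives were each mouse left out, other scalings, log2(value + 16), other limits and other variance models.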

Additional observations from a re-analysis of the deposited data

How the results depend on the processing

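No paired analysis was possible because the arrays form 1 group. The number of genes above the limit was 6 and the number past the limma variance test 0 under every alternative run for them, among them each mouse left out, quantile normalization and median centring. For the first count, leaving out a mouse, rescaling the arrays or lowering the limit could not lose a gene. Only the 99th percentile, a higher limit, tested it. The limit from 951 receptor probe sets with 1 or several receptor symbols, added after the data were seen, was lower on each array and gave 6 as well. Pathway genes above the limit numbered 115, from 115 to 116 without 1 mouse, 110 at the 99th percentile and 115 or 116 otherwise. The adjusted p of Bdnf ranged from 0.968 to 0.994 and its SD from 0.23 to 0.47 over the alternatives. Its span was 1.58-fold, 1.41-fold after quantile normalization and 1.53-fold after median centring. Of 243 alternative values 7 were counted as moved, all of them deviations of Ntrk2 or Ntrk3 under another scaling. Each of the 7 moved by more than its gene's SD between mice, a measure that counts and adjusted p-values do not have. Many of the others could not move that far. Leaving out a mouse cannot shift the mean level of a gene by its SD. Median centring by construction leaves mean levels and differences from genes of like level unchanged, as for Bdnf (9.60, and -0.26 in mouse 1). The share of values that stayed is thus no measure of stability. The level-dependent brightness of the arrays, 3 animals, and the low signal of Ntf5 and Ngfr over background limit what can be read.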
